A study of Mus musculus with 78 samples.

Results

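The genes described here were Id1, Id2, Id3, Id4, Bmp4 and Smad6, 6 genes of the BMP and ID pathway among the 54446 genes of the RNA-seq tables, and they were taken by gene name. All of the values come from mouse cells of the V6.5 embryonic stem cell (mESC) line or from neural progenitor cells (NPCs) of that strain. In TRIM28-FKBP mESCs a degradation tag (FKBP) had been knocked into the N terminus of TRIM28 in cells grown from picked colonies, a clone each, so that the compound dTAG-13 removes the TRIM28 protein, a corepressor that silences endogenous retroviruses (ERVs). The RNA-seq time course held 3 libraries each of TRIM28-FKBP mESCs given DMSO, or dTAG-13 at 500 nM over 2, 6, 24 or 96 h, in serum and LIF after removal of feeder cells. Its DMSO group was collected after 24 h and was also the control of the 96 h group. TT-SLAM-seq, which counts RNA labelled during a short pulse and so reads new transcription, held 3 libraries each for DMSO and for 2, 6 and 24 h. The shERV line, a TRIM28-FKBP line with doxycycline (Dox)-inducible short hairpin RNAs against 4 ERV families, held 3 libraries each for DMSO, for dTAG-13 and for dTAG-13 with Dox, all after 24 h and all made from total RNA. The titles name Dox in the last group alone, whereas the treatment notes give Dox to all 3 groups before treatment, so the groups are called here by their titles. Untreated, untagged parental mESCs and NPCs in DMSO held 3 RNA-seq libraries each; the labels give no TRIM28 genotype for the NPCs. For mESCs the study's methods give removal of feeder fibroblasts ahead of all RNA-seq, although the growth notes of the parental and shERV cells name feeders without that step. ChIP–seq peaks, called by the authors in cells given DMSO or 24 h of dTAG-13, came from 3 libraries per group for H3K27Ac and H3K9me3 and 2 per group for RNA polymerase II (RNAPII) and the Mediator subunit MED23. The study calls the time course, TT-SLAM-seq and shERV libraries biological replicates, but the labels do not say whether libraries of a group came from separate cultures, so the p-values measure the spread between these libraries, which may in part be technical.

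BMP ligands such as BMP4 bind paired type I and type II receptors, which phosphorylate SMAD1, SMAD5 and SMAD9, and these enter the nucleus with SMAD4. The Id genes are among the best known direct targets of this signal. ID proteins are helix-loop-helix proteins without a DNA-binding region that bind E proteins and hold them away from DNA, and in mESCs in serum and LIF they are known to restrain neural differentiation. SMAD6 is an inhibitory SMAD that BMP signalling itself induces and that blocks the receptors and SMAD1.

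In the mm10 positions of the tables, Id1 (ENSMUSG00000042745.9) spans chr2:152736251-152737410 on the plus strand, Id2 (ENSMUSG00000020644.9) chr12:25093799-25097140 on the minus strand and Id3 (ENSMUSG00000007872.3) chr4:136143497-136145755 on the plus strand. Id4 (ENSMUSG00000021379.2) spans chr13:48261228-48266026 on the plus strand, where A330033J07Rik and Gm49291 lie on the other strand. Bmp4 (ENSMUSG00000021835.15) spans chr14:46383520-46390669 on the minus strand, where Gm15217 and Gm15222 lie on the other strand. Smad6 (ENSMUSG00000036867.7) spans chr9:63953076-64022059 on the minus strand, a gene body of 68984 bp against 1160 bp for Id1. The RNA-seq libraries were stranded and the TT-SLAM-seq counting used strand, but whether the RNA-seq assembly did is not given in the sources used here, so RNA-seq values of Id4 and Bmp4 are uncertain to that extent.

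Promoters are shown because the peak results concern the gene starts within 1 kb, although a peak there can lie outside the printed bases. Those of Id2, Id3, Bmp4 and Smad6 are printed because these genes moved more than Id4 in the RNA-seq time course. The 250 bases before the RefSeq start are given (GRCm38.p6, 5′ to 3′ along the gene's strand), in lower case. Capitals mark matches on either strand to the GC box, GGGCGG, which reads CCGCCC on the other strand, and to the GC-rich element known for SMAD1 and SMAD5, GGCGCC.
Id2, chr12:25096093-25096342, minus strand: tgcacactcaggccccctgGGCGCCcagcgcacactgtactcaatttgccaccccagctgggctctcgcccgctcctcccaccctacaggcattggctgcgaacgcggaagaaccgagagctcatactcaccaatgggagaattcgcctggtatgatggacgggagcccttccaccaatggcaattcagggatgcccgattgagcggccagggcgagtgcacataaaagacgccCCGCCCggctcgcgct
Id3, chr4:136143572-136143821, plus strand: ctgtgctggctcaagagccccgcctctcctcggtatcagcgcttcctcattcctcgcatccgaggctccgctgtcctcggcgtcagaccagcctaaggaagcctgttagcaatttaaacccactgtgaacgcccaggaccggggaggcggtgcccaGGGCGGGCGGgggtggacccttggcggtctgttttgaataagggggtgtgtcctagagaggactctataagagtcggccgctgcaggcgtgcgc
Bmp4, chr14:46390670-46390919, minus strand: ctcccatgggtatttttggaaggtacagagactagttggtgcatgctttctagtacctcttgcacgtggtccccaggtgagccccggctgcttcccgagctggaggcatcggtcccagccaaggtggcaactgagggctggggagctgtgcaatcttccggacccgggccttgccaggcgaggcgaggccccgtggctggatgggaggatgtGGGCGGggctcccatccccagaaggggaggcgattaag
Smad6, chr9:64022060-64022309, minus strand: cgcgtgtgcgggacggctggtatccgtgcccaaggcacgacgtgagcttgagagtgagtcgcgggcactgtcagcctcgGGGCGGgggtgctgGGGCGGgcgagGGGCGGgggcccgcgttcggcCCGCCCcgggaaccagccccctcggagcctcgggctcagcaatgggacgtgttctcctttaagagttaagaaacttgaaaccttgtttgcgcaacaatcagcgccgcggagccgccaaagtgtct
Promoter sequences of 5 of the 6 genes were matched by symbol in the RefSeq table, those of Id2, Id3, Id4, Bmp4 and Smad6. GGGCGG occurred in all 5 of these windows, 1 time in Id2 and Bmp4, 2 overlapping times in Id3, 4 times in Smad6 and 5 times in Id4, and in 32.7% of all 32817 windows of the same length. GGCGCC occurred 1 time in the windows of Id2 and Id4 and in 9.59% of all windows. Of the other motifs searched on both strands, the SMAD box GTCT occurred in the windows of Id2, Id3, Bmp4 and Smad6 (82.9% of all windows), CCAAT in those of Id2 and Id4 (33.8%), the E-box CANNTG in those of Id2 and Bmp4 (66.2%), TGACG in those of Id3 and Id4 (17.7%) and TATAAA in none of the 5 (12.4%). The windows were rich in G and C, with 62.8% in Id2 and Id3, 63.2% in Bmp4, 66.8% in Smad6 and 75.6% in Id4, against a median of 52.4% over all windows.

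RNA-seq values are TPM as the authors deposited them, a share of the library's transcripts after division by transcript length, and differences are in mean log2(TPM + 0.5) with their SE, from limma fits over all genes that reached 1 TPM in 3 or more libraries. A gene is said to have changed at a Benjamini-Hochberg adjusted p below 0.05. All 6 genes passed this filter in every RNA-seq fit. The relative depth of the RNA-seq libraries, taken from the tables' coverage, ran from 0.651 to 1.51 apart from 24 h replicate 1 at 0.281, and the TT-SLAM-seq totals ran from 6.48e+06 to 2.43e+07 reads, with the lowest in 24 h replicate 3. The transcript of the targeted gene, Trim28, fell from 623.8 ± 2.28 TPM in DMSO to 372.1 ± 9.18 at 24 h and 191.7 ± 10.2 at 96 h (SD, n = 3), although dTAG-13 acts on the protein, which these data do not measure. The 10 ESC markers (Pou5f1, Nanog, Dppa5a and others) summed to 4991 to 5416 TPM in the DMSO libraries and 11 neural progenitor markers to 5777 to 5826 TPM in the NPC libraries; Pou5f1 was listed at 0 TPM in every NPC library.

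At 24 h of dTAG-13, Id1, Id2, Id3 and Bmp4 had fallen and Smad6 had risen. Id1 stood at 114.1, 114.4 and 113.2 TPM in DMSO and at 67.3, 67.1 and 80.4 TPM at 24 h. The groups did not overlap, and the difference was −0.67 ± 0.10 on the log2 scale (SE, n = 3, limma adjusted p = 2.5e-05). Id2 stood at 56.2, 68.3 and 49.2 TPM in DMSO and at 31.7, 26.9 and 25.8 TPM at 24 h, so that every 24 h library lay below every DMSO library (−1.02 ± 0.12, adjusted p = 3.38e-06). Id3 stood at 61.3, 66.6 and 65.2 TPM in DMSO and at 32.3, 29.4 and 38.2 TPM at 24 h (−0.95 ± 0.11, adjusted p = 2.02e-06). Bmp4, the ligand, was expressed at a much lower level, with 6.94, 6.51 and 6.92 TPM in DMSO and 4.14, 4.01 and 4.86 TPM at 24 h (−0.60 ± 0.08, adjusted p = 1.09e-05).
Smad6, the inhibitor, went the other way. It stood at 4.74, 4.40 and 4.14 TPM in DMSO and at 10.2, 8.60 and 8.56 TPM at 24 h, with no overlap (0.96 ± 0.10, adjusted p = 9.76e-07). Id4 was near 1 TPM throughout, at 1.36, 1.24 and 1.38 TPM in DMSO and 1.20, 1.23 and 1.20 TPM at 24 h, and it did not pass the test (−0.10 ± 0.11, adjusted p = 0.446).
Thus 4 of the 6 genes fell and 1 rose, where 25% of the 17922 genes tested fell and 42.9% rose. The median difference of the 6 genes was −0.63 against 0.13 over all genes tested. Centring every library on its median gene moved the difference of all genes by −0.29 and turned the shares to 44.1% lower and 25.9% higher. Under that centring the directions of all 6 genes held and Id4 also passed the test (−0.39, adjusted p = 0.00424).
Cell type markers moved at 24 h as well. The 10 ESC markers summed to 3364 to 3716 TPM against 4991 to 5416 TPM in DMSO, with 8 of 10 lower and 1 higher. The 10 trophoblast markers summed to 644.3 to 720 TPM against 855.7 to 908 TPM, with 7 of the 9 tested lower and 1 higher, and the 15 feeder fibroblast markers (collagens and others) to 62.0 to 66.8 TPM against 44.7 to 46.6 TPM, with 8 of the 14 tested higher and 1 lower. After centring 9 ESC markers were lower and 1 higher, 7 trophoblast markers lower and 0 higher, and 5 feeder markers higher and 3 lower. The other lists went both ways without centring. Of the endoderm markers 4 of 13 were higher and 3 lower, of the mesoderm markers 3 of 7 and 2, and of the neural markers 2 of 8 and 3. Of the 8 neural markers, 1 passed the filter through its 24 h libraries alone, and 1 of the other 7 was higher. Over all genes 42.9% rose and 25% fell, or 25.9% and 44.1% after centring. Their part in the values of the 6 genes was not tested, and in bulk libraries fewer cells of a type and less RNA per cell cannot be told apart.

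**Figure D1:**
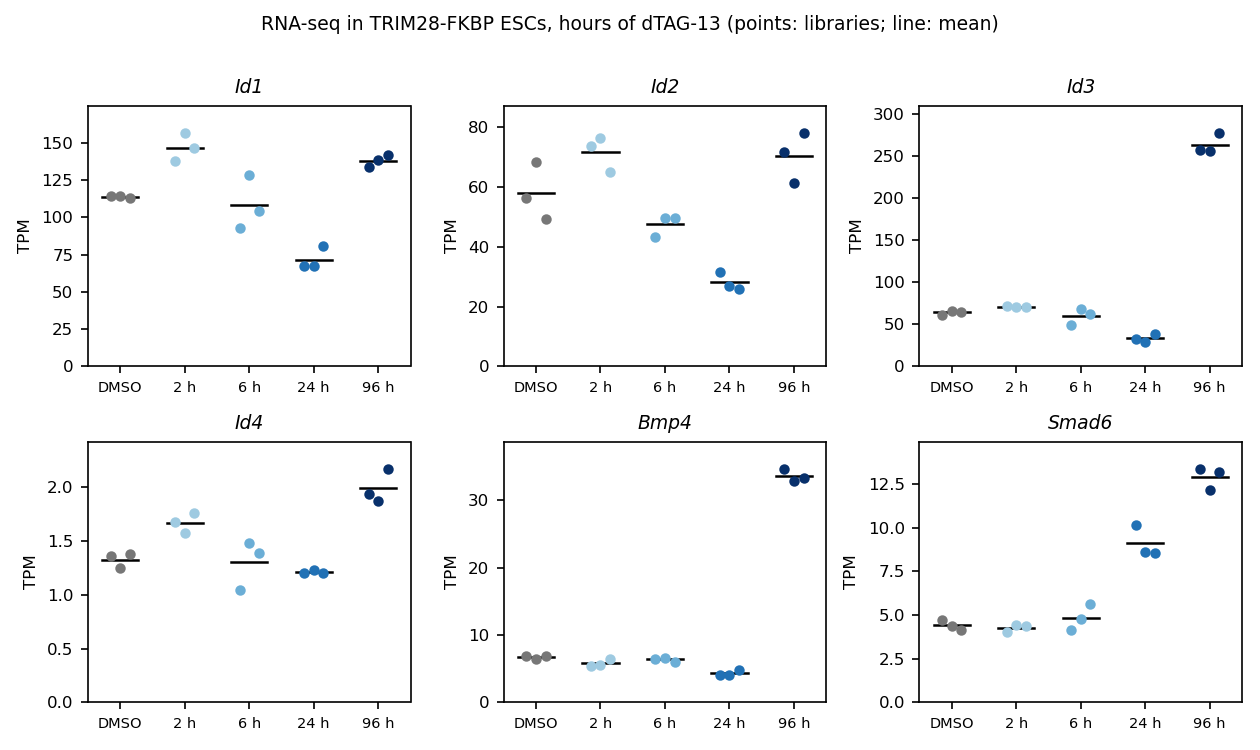
TPM (vertical axis, linear) of each of the 6 genes in the RNA-seq time course against time in dTAG-13 (horizontal axis, in h), with 1 point per library and a line at each group mean. Id1, Id2 and Id3 dip at 24 h, Id3 and Bmp4 climb to 264 and 33.5 TPM at 96 h, and Smad6 climbs at both 24 and 96 h.

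The earlier times showed little. At 2 h, Id1 stood at 137.4, 156.2 and 146.2 TPM, above all DMSO libraries (0.36 ± 0.10, limma adjusted p = 0.0216), and the other 5 genes did not pass the test. At that time 8.25% of all genes had risen and 7.02% had fallen. The Id1 call was lost in 5 of the 6 fits that left out 1 of these libraries, with adjusted p up to 0.0827. It was lost without DMSO replicate 1, 2 or 3 and without 2 h replicate 2 or 3 (differences of 0.31 to 0.36). The smaller differences at 2 h were 0.32 for Id2 (adjusted p = 0.0910), 0.25 for Id4 (0.145), 0.15 for Id3 (0.393), −0.04 for Smad6 (0.814) and −0.22 for Bmp4 (0.0818).
At 6 h none of the 6 genes passed the test, while 18.4% of all genes had risen and 15.5% had fallen (11.3% and 26.3% after centring). In the limma fit Id2 was the only one of the 6 below 0.05 before adjustment (−0.27 ± 0.12, adjusted p = 0.0919). Id1 ranged from 92.6 to 128.1 TPM and Id3 from 49.0 to 68.9 TPM across the 6 h libraries, a wider spread than in DMSO. Id2 passed the test at 6 h without DMSO replicate 3 (−0.38, limma adjusted p = 0.0265) and after centring (−0.37, adjusted p = 0.0305). Id1 passed it without 6 h replicate 2 (−0.21, adjusted p = 0.0492).

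At 96 h all 6 genes stood above their DMSO level, and the size of the rise separated them. Bmp4 reached 34.6, 32.8 and 33.2 TPM, 4.67-fold its DMSO level on the log2(TPM + 0.5) scale (2.22 ± 0.08, limma adjusted p = 2.57e-12). Id3 reached 258.2, 256.9 and 277.3 TPM (2.03 ± 0.11, adjusted p = 1.72e-10). Smad6 reached 13.3, 12.1 and 13.2 TPM (1.44 ± 0.10, adjusted p = 4.27e-09). None of these 3 genes overlapped its DMSO libraries.
The other 3 moved little. Id1 reached 133.6, 138.5 and 141.5 TPM (0.27 ± 0.10, limma adjusted p = 0.0172), and it stood at −0.003 (adjusted p = 0.978) after centring. Id2 ranged from 61.3 to 77.9 TPM, within reach of its DMSO libraries (0.29 ± 0.12, adjusted p = 0.0396), and its call was lost after centring (0.01, adjusted p = 0.955), with a block for the replicate number (adjusted p = 0.0510) and without DMSO replicate 1 or 3 or 96 h replicate 1 or 3 (0.18 to 0.27, adjusted p up to 0.194). Id4 reached 1.94, 1.87 and 2.16 TPM (0.45 ± 0.11, adjusted p = 0.00149), a call lost after centring (0.17, adjusted p = 0.144).
Across all genes, 42.9% rose and 37.4% fell between DMSO and 96 h, or 33.7% and 48.6% after centring, which moved the median of all genes by −0.28. The median difference of the 6 genes was 0.94 against 0.05 over all genes. Id1 lost its call without 96 h replicate 3 (0.26, limma adjusted p = 0.0501).

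Between 24 and 96 h all 6 genes rose, where 37.4% of all genes rose and 42% fell. The rise was 2.98 ± 0.11 for Id3 (limma adjusted p = 3.77e-12), 2.82 ± 0.08 for Bmp4 (3.67e-13), 1.31 ± 0.12 for Id2 (1.25e-07) and 0.95 ± 0.10 for Id1 (4.19e-07). It was 0.54 ± 0.11 for Id4 (adjusted p = 0.000316) and 0.48 ± 0.10 for Smad6 (0.000427). Id1, Id2, Id3 and Bmp4 fell to 24 h and rose from there, and Smad6 rose at both steps. These comparisons share the 24 h libraries and are not independent of the 24 h comparison.
Markers of other cell types moved with the 96 h values. The ESC markers summed to 437 to 508 TPM at 96 h, with all 10 of 10 lower. The feeder fibroblast markers summed to 441.5 to 465 TPM at 96 h and to 44.7 to 46.6 TPM in DMSO, with 14 of the 14 tested higher and 14 of 15 over 1 TPM at 96 h against 9 of 15 in DMSO. Of these, Dcn, Col3a1 and Prrx1 passed the filter through their 96 h libraries alone. The trophoblast markers summed to 6302 to 6647 TPM against 855.7 to 908 TPM, with 8 of the 9 tested higher and 1 lower. Krt18 held 3415 TPM of this sum at 96 h. The 14 endoderm markers summed to 2190 to 2226 TPM against 459 to 478.7 TPM, of which Sparc held 1405, with 10 of the 13 tested higher and 3 lower. Of these 13, 1 passed the filter through its 96 h libraries alone, and 9 of the other 12 were higher. After centring 7 trophoblast and 9 endoderm markers were higher, and 1 and 3 lower. The 11 neural markers summed to 1330 to 1371 TPM against 264.9 to 281 TPM, of which Vim held 1271, although 4 of the 8 tested were lower and 2 higher, and the 9 mesoderm markers to 44.2 to 51.6 TPM against 16.0 to 19.5 TPM, with 3 of 7 higher and 1 lower. Of the 7 mesoderm markers tested, 1 passed the filter through its 96 h libraries alone, and 2 of the other 6 were higher. The part of these cell types in the values of the 6 genes was not tested.

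**Figure D2:**
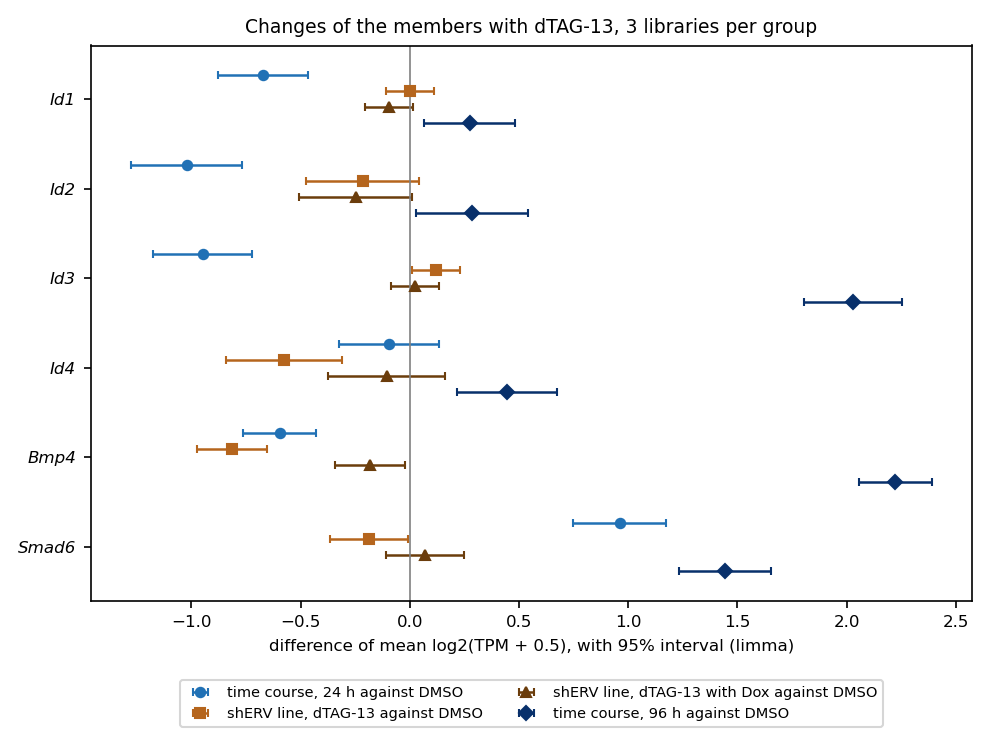
Difference of mean log2(TPM + 0.5) of each of the 6 genes (horizontal axis, log2 units, with the 95% limma interval as bars) at 24 h and 96 h against DMSO in the time course, and with dTAG-13 or dTAG-13 with Dox against DMSO in the shERV line. The 24 h points of Id1, Id2 and Id3 lie left of 0 in the time course and near 0 in the shERV line, and Smad6 lies at 0.96 and 1.44 in the time course against −0.19 and 0.07 in the shERV line.

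New transcription was read from the TT-SLAM-seq table, in FPKM over the whole gene body, with limma on log2(FPKM + 0.5) over genes that reached 0.5 FPKM in 3 or more libraries. Of the 6 genes, 4 passed this filter. Id4 (0.057 to 0.358 FPKM, from 2 to 38 reads per library) and Bmp4 (0.065 to 0.3333 FPKM, from 3 to 37 reads) did not, and have no test in this fit. Smad6 passed it through its 6 h and 24 h libraries alone, since all of its DMSO values lay under 0.5 FPKM, so passing the filter already called for a difference.
Smad6 stood at 0.388, 0.377 and 0.332 FPKM in DMSO, at 0.654, 0.608 and 0.591 FPKM at 6 h and at 1.25, 1.05 and 0.964 FPKM at 24 h. The groups did not overlap at either time. The rise at 6 h was 0.37 ± 0.08 (limma adjusted p = 0.0199), while the RNA-seq difference of Smad6 at 6 h was 0.11 ± 0.10 (adjusted p = 0.403). At 24 h the rise was 0.87 ± 0.08 (adjusted p = 5.38e-05). The added 0.5 was larger than every DMSO value of Smad6 in FPKM and so shrinks these differences. It shrinks the RNA-seq difference less, where Smad6 stood at 4.14 to 4.74 TPM in DMSO, so the 2 scales are not alike. Over the alternatives the TT-SLAM-seq difference ranged from 0.24 to 0.63 at 6 h and from 0.61 to 1.35 at 24 h. The 6 h call was lost after centring (0.30, adjusted p = 0.0527) and without DMSO replicate 1 or 2 or 6 h replicate 1 or 3 (adjusted p up to 0.0852).
Id2 stood at 8.66, 7.01 and 4.36 FPKM in DMSO and at 2.71, 1.75 and 3.19 FPKM at 24 h, where all libraries lay below DMSO (−1.22 ± 0.26, limma adjusted p = 0.00488). Its 6 h values were 3.38, 5.23 and 5.02 FPKM and did not pass the test (−0.48 ± 0.26, adjusted p = 0.273). Id1 stood at 21.7, 19.3 and 13.5 FPKM in DMSO and at 16.1, 10.2 and 14.8 FPKM at 24 h, with overlap (−0.39 ± 0.24, adjusted p = 0.228). Id3 stood at 10.6, 8.75 and 7.07 FPKM in DMSO and at 7.36, 5.98 and 7.58 FPKM at 24 h, also with overlap (−0.31 ± 0.15, adjusted p = 0.133).
At 2 h no tested gene of the 4 changed (0.34 for Id1, 0.15 for Id2, −0.02 for Id3 and 0.05 for Smad6, with limma adjusted p from 0.444 to 0.962 and none with an unadjusted p below 0.05). In all, 1.58% of the 13357 genes tested rose and 1.97% fell at 2 h (3.44% and 1.65% after centring). At 6 h 7.82% rose and 1.27% fell (5.47% and 2.55% after centring). At 24 h 32.3% rose and 5.59% fell, or 13.9% and 16.8% after centring, which moved the median of all genes by −0.24 and brought Id3 past the test (−0.55, adjusted p = 0.0229). Id3 also passed it without DMSO replicate 3 (−0.45, limma adjusted p = 0.0326).
The values at or under 20 reads gave whole reads within 0.1 for 98.2% to 99.4% of values per library, so reads were worked out from them and tested with limma's voom, an alternative added after the data had been seen. At 24 h this gave −1.78 ± 0.24 for Id2 (voom adjusted p = 8.68e-06), −0.77 ± 0.21 for Id1 (0.00726), −0.69 ± 0.15 for Id3 (0.00136) and 1.23 ± 0.12 for Smad6 (1.95e-07). In that fit Id1, Id2 and Id3 all fell at 24 h, and at 6 h Smad6 alone of the 6 had changed (0.63 ± 0.12, voom adjusted p = 0.00162). Bmp4 (−0.77 ± 0.42 at 24 h, voom adjusted p = 0.148) and Id4 (−0.22 ± 0.49, 0.745) were tested there and did not pass at any of the 3 times. It called 2662 of 18199 genes at 6 h and 7337 at 24 h, against 1214 and 5063 of 13357 in the FPKM fit, and 2383 against 474 at 2 h.

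**Figure D3:**
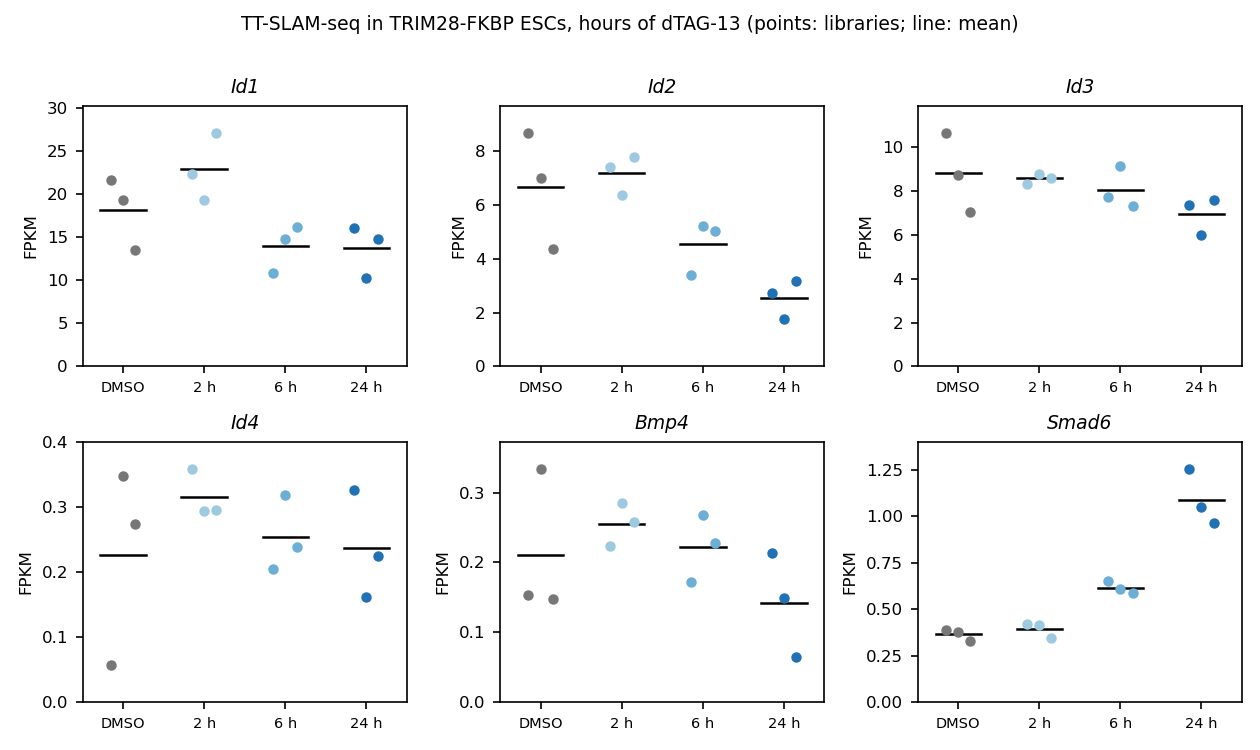
TT-SLAM-seq FPKM (vertical axis, linear) of each of the 6 genes against time in dTAG-13 (horizontal axis, in h), with 1 point per library and a line at each group mean. Smad6 climbs from a mean of 0.366 FPKM in DMSO to 1.09 at 24 h, Id2 falls from 6.67 to 2.55, and the libraries of Id4 and Bmp4 overlap those in DMSO at every time.

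The response of the 6 genes was not the same in the shERV line. With dTAG-13 against DMSO, Bmp4 and Id4 fell and the others did not pass the test, where 41.2% of the 16166 genes tested rose and 12.8% fell. Bmp4 stood at 27.1, 28.6 and 26.3 TPM in DMSO and at 15.3, 14.1 and 16.6 TPM with dTAG-13 (−0.81 ± 0.07, limma adjusted p = 3.46e-06). Id4 stood at 2.15, 2.34 and 2.18 TPM in DMSO and at 1.34, 1.14 and 1.53 TPM with dTAG-13 (−0.58 ± 0.12, adjusted p = 0.00189). Neither gene's groups overlapped.
Id1 stood at 115.2, 124.3 and 126.8 TPM in DMSO and at 127.2, 117.4 and 121.4 TPM with dTAG-13, a difference of −0.001 with a 95% interval from −0.11 to 0.11 (limma adjusted p = 0.99). The differences of the other 3 genes were 0.12 for Id3 (adjusted p = 0.0592), −0.22 for Id2 (0.146) and −0.19 for Smad6 (0.0736). These calls depend on the scaling. Centring moved the median of all genes by −0.17 and turned the shares to 25.9% higher and 29.6% lower, and 5 of the 6 genes then passed the test as lower, with Id1 at −0.17 (adjusted p = 0.00154), Id2 at −0.38 (0.0140) and Smad6 at −0.35 (0.00369), while Id3 stood at −0.04 (0.204). Id3 passed the test as higher without DMSO replicate 2 or 3 (0.15, limma adjusted p up to 0.0461), and Smad6 as lower without dTAG-13 replicate 1 (−0.26, adjusted p = 0.0235).
With dTAG-13 and Dox together, none of the 6 genes differed from DMSO, and of all genes tested 0.0495% (8 genes) were higher and 0.0124% (2 genes) lower, or 0.0371% and 0.0433% after centring. Bmp4 alone of the 6 was below 0.05 before adjustment in that limma fit (−0.18 ± 0.07, adjusted p = 0.248). The Trim28 transcript averaged 270.3 TPM in DMSO and 206.5 TPM with dTAG-13 (−0.386 ± 0.047, limma adjusted p = 3.15e-05). With dTAG-13 and Dox it averaged 284.4 TPM (0.075 ± 0.047 against DMSO, limma adjusted p = 0.370). Its part in the values of the 6 genes was not tested. Against dTAG-13 without Dox, Bmp4 was higher at 22.7, 23.1 and 26.4 TPM (0.63 ± 0.07, limma adjusted p = 3.09e-05), Id4 at 2.00, 2.32 and 1.80 TPM (0.47 ± 0.12, 0.00783) and Smad6 at 5.94, 6.25 and 5.94 TPM (0.26 ± 0.08, 0.0226). In all, 17.5% of genes were higher and 29.3% lower in that comparison (28.3% and 25.5% after centring). It shares the dTAG-13 libraries with the comparison of dTAG-13 against DMSO and is not independent of it. The Smad6 call was lost without dTAG-13 replicate 2 or 3 or Dox replicate 2 (0.22 to 0.24, adjusted p up to 0.0840).

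The difference between the responses of the lines to 24 h of dTAG-13 was tested as an interaction, the shERV line minus the time course. Id3 differed by 1.07 ± 0.11 (limma adjusted p = 1.34e-05), Id2 by 0.81 ± 0.21 (0.00587) and Id1 by 0.67 ± 0.09 (8.55e-05), so that the fall of these 3 genes in the time course was smaller or not seen in the shERV line. Smad6 differed by −1.15 ± 0.13 (adjusted p = 2.27e-05) and Id4 by −0.48 ± 0.16 (0.0204). The fall of Bmp4 did not pass the test of a difference between the lines (−0.22 ± 0.11, limma adjusted p = 0.123, 95% interval −0.46 to 0.03). Of all 17653 genes tested, 26.2% were higher and 25.2% lower in the interaction, or 36.6% and 20.5% after centring, which moved the median of all genes by 0.12. The Id4 call was lost without time course DMSO replicate 2 or shERV dTAG-13 replicate 2 (limma adjusted p up to 0.0511).
The lines also differed in DMSO. Library chemistry (total RNA against poly(A) RNA), clone and, if the treatment notes hold, Dox cannot be told apart in that difference or in the interaction. In DMSO, Bmp4 averaged 27.3 TPM in the shERV line against 6.79 TPM in the time course and Id3 111.5 against 64.4 TPM, levels set across libraries of different chemistry and given without a test. Feeder markers summed to 147.5 to 160.6 TPM in the shERV DMSO libraries and trophoblast markers to 1468 to 1635 TPM, with the ESC markers at 2491 to 2871 TPM. With dTAG-13 all 10 ESC markers of that line fell, to a sum of 1284 to 1309 TPM, which was 2751 to 2800 TPM with Dox. Their part in the values of the 6 genes was not tested.

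Id1, Id2 and Id3 were lower and Bmp4 and Id4 higher in parental mESCs than in TRIM28-FKBP mESCs in DMSO. Id1 stood at 21.1, 20.2 and 18.9 TPM in the parental libraries against 113.2 to 114.4 TPM (−2.48 ± 0.05, limma adjusted p = 8.91e-10), the lowest Id1 level of all groups. Id2 stood at 13.6, 17.6 and 18.8 TPM (−1.77 ± 0.14, adjusted p = 3.02e-06) and Id3 at 27.3, 28.8 and 25.8 TPM (−1.22 ± 0.05, 2.92e-08). None of these values overlapped those of the TRIM28-FKBP libraries in DMSO.
Bmp4 stood at 12.5, 12.2 and 13.5 TPM in the parental libraries (0.86 ± 0.07, limma adjusted p = 7.01e-06) and Id4 at 2.76, 2.29 and 2.71 TPM (0.75 ± 0.08, 1.89e-05). Smad6 stood at 3.62, 3.11 and 3.08 TPM (−0.39 ± 0.10, adjusted p = 0.00696), a call lost after centring (−0.19, adjusted p = 0.11). In this comparison 25% of the 17458 genes tested were higher and 41% lower in parental cells, or 41.8% and 26.9% after centring, which moved the median of all genes by 0.19. The parental cells were untreated and the TRIM28-FKBP cells had DMSO, and feeder markers summed to 165.7 to 167.9 TPM in the parental libraries against 44.7 to 46.6 TPM, with 11 of the 14 tested higher. Of these 14, 3 passed the filter through the parental libraries alone, and 9 of the other 11 were higher. Trophoblast markers summed to 56.3 to 60.1 TPM against 855.7 to 908 TPM, with 8 of the 9 tested lower and 1 higher, and ESC markers to 6979 to 7074 TPM against 4991 to 5416 TPM, with 8 of 10 higher and 1 lower. Trim28 itself stood at 1398 ± 17.6 TPM in the parental libraries against 623.8 ± 2.28 TPM (1.16 ± 0.02, limma adjusted p = 5.64e-10). The part of these differences in the levels of the 6 genes was not tested.

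In NPCs the 4 Id genes parted. Id4 stood at 35.9, 36.0 and 37.7 TPM (4.34 ± 0.08 against TRIM28-FKBP mESCs in DMSO, limma adjusted p = 1.81e-11), its highest level of all groups. Id2 stood at 205.8, 224.4 and 200.8 TPM (1.86 ± 0.14, adjusted p = 5e-07) and Id3 at 138.8, 132.9 and 132.9 TPM (1.06 ± 0.05, 8.51e-09).
Id1, Bmp4 and Smad6 were lower in NPCs. Id1 stood at 26.2, 27.1 and 24.5 TPM (−2.11 ± 0.05, limma adjusted p = 9.33e-11), Bmp4 at 1.82, 1.92 and 2.20 TPM (−1.56 ± 0.07, 2.06e-08) and Smad6 at 1.62, 1.28 and 1.59 TPM (−1.31 ± 0.10, 7.44e-07). Here 49.5% of all genes were higher and 39.5% lower, or 36.7% and 52% after centring, which moved the median of all genes by −0.40, and 6 of 6 directions held under it. Fabp7, a fatty acid binding protein of radial glia, averaged 2623 TPM there against 0.204 TPM in TRIM28-FKBP mESCs in DMSO, and passed the filter through its NPC libraries alone.

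**Figure D4:**
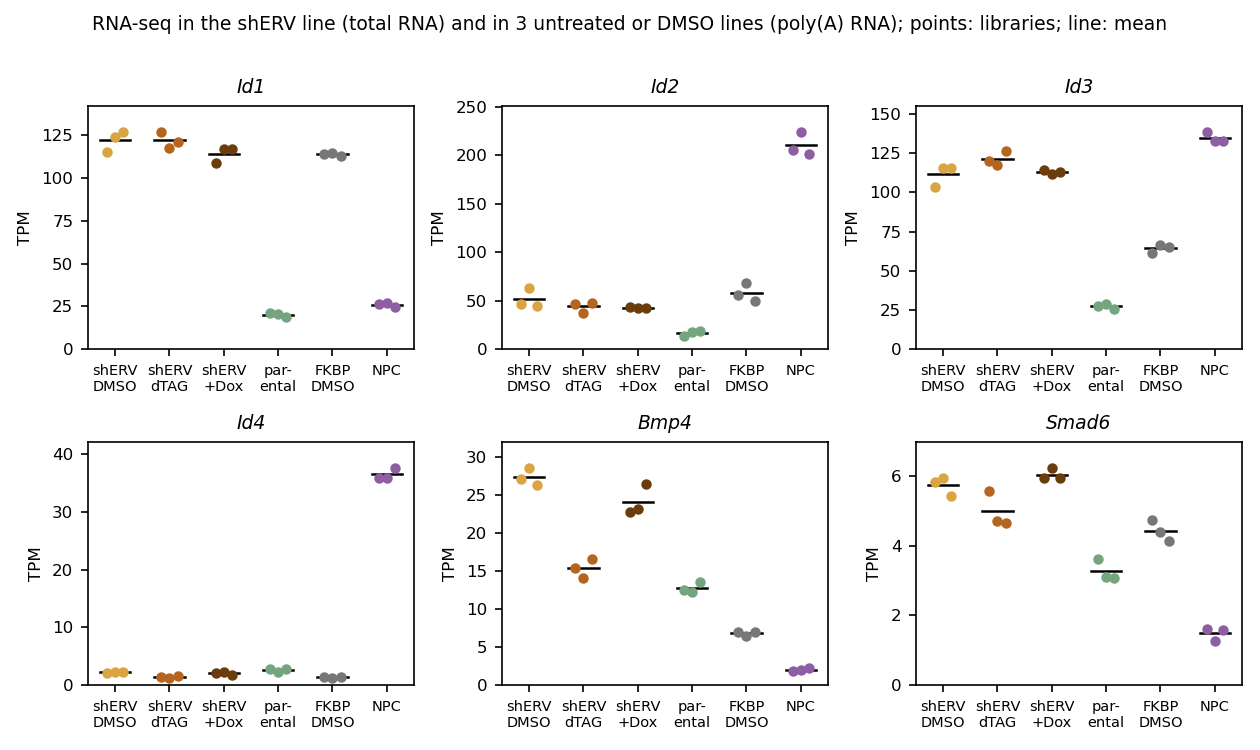
TPM (vertical axis, linear) of the 6 genes in the shERV line with DMSO, dTAG-13 or dTAG-13 with Dox (total RNA) and in parental mESCs, TRIM28-FKBP mESCs in DMSO and NPCs (poly(A) RNA), with 1 point per library and a line at the mean. Bmp4 dips with dTAG-13 in the shERV line, Id1 is lowest in the parental libraries and Id4 stands above 35 TPM in NPCs alone.

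Over the 7 poly(A) groups the order of the levels differed by gene. Id1 ran from 20.1 TPM in parental mESCs through 26.0 in NPCs and 71.6 at 24 h to 108.3 at 6 h, 113.9 in DMSO, 137.8 at 96 h and 146.6 at 2 h, and only the 6 h and DMSO libraries and the 96 h and 2 h libraries overlapped as neighbours. Id2 ran from 16.7 TPM in parental mESCs to 28.1 at 24 h and 47.5 at 6 h, then 57.9 in DMSO, 70.3 at 96 h and 71.8 at 2 h, each of which overlapped the one before, and 210.3 in NPCs. Id3 ran from 27.3 TPM in parental mESCs to 33.3 at 24 h, 59.9 at 6 h, 64.4 in DMSO, 71.3 at 2 h, 134.9 in NPCs and 264.2 at 96 h, with overlap between 6 h and DMSO alone.
Id4 ran from 1.21 TPM at 24 h, 1.30 at 6 h and 1.33 in DMSO, which overlapped, to 1.67 at 2 h, 1.99 at 96 h, 2.59 in parental mESCs and 36.5 in NPCs. Bmp4 was lowest in NPCs at 1.98 TPM, stood at 4.34 at 24 h, 5.80 at 2 h, 6.38 at 6 h and 6.79 in DMSO, and was highest in parental mESCs at 12.8 and at 96 h at 33.5, where the neighbours among 2 h, 6 h and DMSO overlapped. Smad6 ran from 1.50 TPM in NPCs and 3.27 in parental mESCs through 4.28 at 2 h, 4.43 in DMSO and 4.86 at 6 h, where neighbours overlapped, to 9.11 at 24 h and 12.9 at 96 h.
Across the 15 time course libraries, which fall into 5 groups and share their scaling, Pearson's r of log2(TPM + 0.5) was 0.93 between Id1 and Id2, 0.96 between Id3 and Bmp4, and −0.18 between Id1 and Smad6. Among 11927 genes with a mean of at least 5 TPM, genes among the 3 most like Id1 were Brf2 (r = 0.958) and Zfand2a (0.953), and those most like Id2 were Mrps7, Slc5a6 and Bax (each 0.947). Those most like Id3 were Plaur (0.995), Smim3 (0.994) and Selenow (0.994), those among the 3 most like Id4 Tnpo1 (0.952) and Mad2l1bp (0.948), those most like Bmp4 Vim (0.997), Itga3 (0.997) and Hand1 (0.996), and those most like Smad6 Maged1 (0.989), Slc39a8 (0.989) and Slc17a5 (0.988). These values describe likeness over the libraries and were not tested.

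The rest of the pathway was followed through lists of its parts, whose counts are to be read against the shares of all genes, of which 42.9% rose and 25% fell at 24 h, and 42.9% and 37.4% at 96 h. After centring these shares were 25.9% and 44.1% at 24 h and 33.7% and 48.6% at 96 h. Among BMP and GDF ligands other than Bmp4, 2 of the 7 tested rose and 2 fell at 24 h, and 6 rose and 1 fell at 96 h, and centring left 2 that rose and 5 that fell at 24 h, and 6 and 1 at 96 h. Bmp7 rose from 1.94 ± 0.38 to 10.2 ± 1.60 TPM at 24 h (2.13 ± 0.13 log2, limma adjusted p = 7.11e-09). Bmp2 stood at 0.763 ± 0.15 TPM in DMSO and 27.5 ± 1.19 TPM at 96 h. Bmp2 and Gdf6 passed the filter through their 96 h libraries alone, so that they had to differ there and no test of them is given. Of the other 5 ligands 4 rose and 1 fell. Bmp7 and Bmp2 both encode BMP ligands, and at 24 h Bmp4 had fallen where Bmp7 had risen.
Of the 7 receptors, 6 rose and none fell at 24 h (median 0.52 against 0.13 over all genes), or 4 and 1 after centring. At 96 h 5 rose and 2 fell, also after centring. Of the other SMADs and the SMURF ubiquitin ligases, 5 of 6 rose and 1 fell at 24 h and all 6 rose at 96 h, but centring left 2 that rose and 1 that fell at 24 h, and 5 and 1 at 96 h. The 1 that fell was Smad7, the other inhibitory SMAD (39.0 to 33.9 TPM, −0.20 ± 0.05), which is also on the target list and was chosen after its values were seen. Smad7 transcription read by TT-SLAM-seq rose instead, from 6.36 ± 0.93 to 9.64 ± 0.82 FPKM at 24 h (0.57 ± 0.12, limma adjusted p = 0.00378), a call lost after centring (0.33, adjusted p = 0.0554). At 2 h the rise was 0.64 ± 0.12 (adjusted p = 0.0224), or 0.69 after centring (adjusted p = 0.0154).
By TT-SLAM-seq 2 of 5 tested receptors had risen at 6 h and 5 of 5 at 24 h, and 4 of 6 SMAD and SMURF genes at 6 h and 6 of 6 at 24 h, where 7.82% of all genes rose at 6 h and 32.3% at 24 h. After centring, 2 of 5 receptors were higher at 6 h and 3 of 5 at 24 h, and 3 of 6 SMAD and SMURF genes at each time, with none lower, where 5.47% and 13.9% of all genes were higher.
Of the extracellular and membrane modulators, 10 of 12 tested rose and 1 fell at 24 h, or 7 and 2 after centring. The 1 that fell was Fst, which encodes follistatin, a secreted protein that binds activins and some BMPs, from 9.45 ± 0.73 to 1.39 ± 0.55 TPM (−2.43 ± 0.16, limma adjusted p = 1.58e-08). At 96 h 10 rose and 1 fell, also after centring. Of the BMP–SMAD target genes other than the 6, 4 of 14 rose and 3 fell at 24 h (median 0.09 against 0.13), shares near or under those of all genes. At 96 h 13 of 14 rose with none lower, or 11 and 1 after centring, but Dlx5, Atoh8 and Hand2 passed the filter through their 96 h libraries alone, and of the other 11 genes 10 rose.
Of the E proteins and other basic helix-loop-helix factors that ID proteins bind or compete with, 5 of 13 rose and 3 fell at 24 h (4 and 5 after centring), close to the shares of all genes, which is no result about the list. Olig1, an oligodendrocyte lineage factor, rose from 3.95 ± 0.45 to 14.7 ± 1.40 TPM (1.77 ± 0.12, limma adjusted p = 1.52e-08). In NPCs 14 of the 16 tested were higher and 2 lower, where 49.5% of all genes were higher and 39.5% lower. However, 6 of the 16 passed the filter through the NPC libraries alone and so had to be higher, Hes5, a Notch target, among them at 137.2 ± 12.6 TPM against 0.152 ± 0.13 TPM in DMSO. Of the other 10, 8 were higher and 2 lower. The pluripotency gene Klf4 fell from 44.1 ± 1.25 to 11.6 ± 0.37 TPM at 24 h (−1.89 ± 0.04, adjusted p = 2.43e-12), Zfp42 from 129.6 ± 4.52 to 53.9 ± 3.53 TPM (−1.26 ± 0.05, 3.02e-10), and Fgf8, a growth factor of the primitive streak, rose from 2.77 ± 0.34 to 13.98 ± 0.73 TPM (2.15 ± 0.15, 2.82e-08).
In the shERV line with dTAG-13, 5 of 7 ligands rose and 1 fell, 3 of 6 receptors rose and none fell, and 6 of 11 target genes rose and 2 fell, where 41.2% of all genes rose and 12.8% fell. After centring these counts were 4 and 2 for the ligands, 3 and 1 for the receptors and 4 and 4 for the target genes, against 25.9% higher and 29.6% lower over all genes. The shares of receptors and target genes that rose lay near that of all genes. Bambi, a membrane pseudoreceptor that BMP signalling induces, rose there from 2.89 ± 0.32 to 6.82 ± 0.29 TPM (1.115 ± 0.09, limma adjusted p = 1.54e-06) and stood at 2.95 ± 0.09 TPM with Dox. Gdf6, a ligand, stood at 0.780 ± 0.18 TPM in DMSO, 2.14 ± 0.04 TPM with dTAG-13 and 0.737 ± 0.12 TPM with Dox, and it passed the filter through its dTAG-13 libraries alone, so that it had to differ and no test is given. Of the other 6 ligands, 4 rose and 1 fell with dTAG-13 against DMSO. With Dox against dTAG-13 alone, 5 of 7 ligands, 4 of 6 receptors and 6 of 11 target genes were lower, or 3, 4 and 6 after centring, where 29.3% of all genes were lower (25.5% after centring). Gdf6 was among the 5 ligands, and by the same filter it had to be lower. These counts share the dTAG-13 libraries with the counts against DMSO and are not independent of them. No gene of these lists differed between dTAG-13 with Dox and DMSO.

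Peaks were compared within 1 kb of each gene's start, as the highest fold enrichment that the authors' peak caller gave in each library. The highest peak could lie at different sites in different libraries, as it did for H3K27Ac at Id3 and Smad6 and for MED23 at Id2. No library had an H3K9me3 peak, the mark that the TRIM28 pathway lays down, at any of the 6 genes, although dTAG-13 replicate 1 of that mark held only 11474 peaks against 104579 to 147611 in the others. H3K27Ac, a mark of active promoters and enhancers, was found at Id1, Id2, Id3 and Smad6 in all DMSO libraries and at Id4 and Bmp4 in none of the 6 libraries. At Smad6 its fold enrichment was 5.87, 7.02 and 6.99 in DMSO against 2.79, 4.77 and 2.30 after dTAG-13 (−1.08 log2, exact permutation p = 0.1, the smallest possible with 3 against 3, adjusted p = 0.389 over 7 tests), while Smad6 RNA rose.
At Id1 H3K27Ac was 3.06, 3.30 and 3.88 in DMSO, at Id2 7.49, 10.6 and 7.56 and at Id3 3.40, 3.13 and 3.29. After dTAG-13 only replicate 2 had a peak at these genes, at 5.81 for Id1, 8.83 for Id2 and 3.47 for Id3. That library held 117348 peaks against 30259 and 45662 in the other dTAG-13 libraries and 88050 to 117475 in DMSO, so the libraries without a peak at Id1, Id2 and Id3 were those with the fewest peaks, and no test was made. Over the 8121 genes with a peak in every library the median change of H3K27Ac was −0.62.

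RNAPII peaks were found at all 4 Id genes in every library. RNAPII at Id1 was 29.6 and 29.0 in DMSO against 27.1 and 21.9 after dTAG-13 (−0.27 log2), at Id2 14.7 and 13.2 against 12.1 and 12.5 (−0.18), and at Id3 12.3 and 10.8 against 11.6 and 12.0 (0.04). At Id4 it was 4.27 and 4.16 in DMSO against 5.38 and 4.95 after dTAG-13 (0.29). The median over the 5517 genes with a peak in all 4 libraries was −1.05, and between 82.9% and 95.4% of those genes had a lower value than the 4 Id genes. The groups overlapped at Id3 alone, and the exact permutation p was 0.3333 for Id1, Id2 and Id4, the smallest possible with 2 against 2, and 1 for Id3.
At Smad6 RNAPII was 5.34 and 4.87 in DMSO, with no peak in either dTAG-13 library, although its RNA and its TT-SLAM-seq signal rose. Bmp4 had no RNAPII peak in any library. The dTAG-13 libraries held 8182 and 7689 RNAPII peaks against 19853 and 19194 in DMSO, so that fewer were called over the whole genome.
MED23 was found at all 6 genes in both DMSO libraries. At Id1 it was 38.0 and 39.3 in DMSO against 8.54 and 8.63 after dTAG-13 (−2.17 log2), and at Smad6 28.04 and 28.15 against 4.29 and 4.45 (−2.69), each with an exact permutation p of 0.3333, the smallest possible. At Id2 it was 43.1 and 47.5 in DMSO, with 3.93 in 1 dTAG-13 library and no peak in the other. The DMSO values at Id2 came from peaks at chr12:25098098-25101559 and chr12:25097858-25101621, which reach into the window from upstream. The dTAG-13 value came from another peak, at chr12:25096593-25096748, so these values do not measure a change at the same site. Id3 had 11.7 and 38.1 in DMSO, values far apart, and 3.59 in 1 dTAG-13 library. Id4 had 13.5 and 9.18 in DMSO against 3.77 in 1 dTAG-13 library, and Bmp4 5.91 and 5.66 in DMSO and no peak after. The median over the 4655 genes with a MED23 peak in every library was −1.49, and 17.4% of them had a lower value than Id1 and 4.02% a lower value than Smad6. The MED23 libraries held 63045 and 58925 peaks in DMSO against 15335 and 14551 with dTAG-13.
Over the printed promoter windows themselves, MED23 peaks lay in both DMSO libraries at Id2, Id3, Bmp4 and Smad6, as at Id4, and after dTAG-13 in both at Smad6, in 1 at Id3 and in none at Id2, Bmp4 and Id4. RNAPII peaks lay over the Id2 and Id3 windows in all 4 libraries. H3K27Ac peaks lay over the Id2 window in 3 of 3 DMSO libraries and 0 of 3 dTAG-13 libraries and over the Smad6 window in 3 of 3 and 1 of 3. The RefSeq start of Id2 lies inside the span given in the tables, so for Id2 the window of 1 kb on each side is centred upstream of the printed promoter and holds it only in part.

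**Figure D5:**
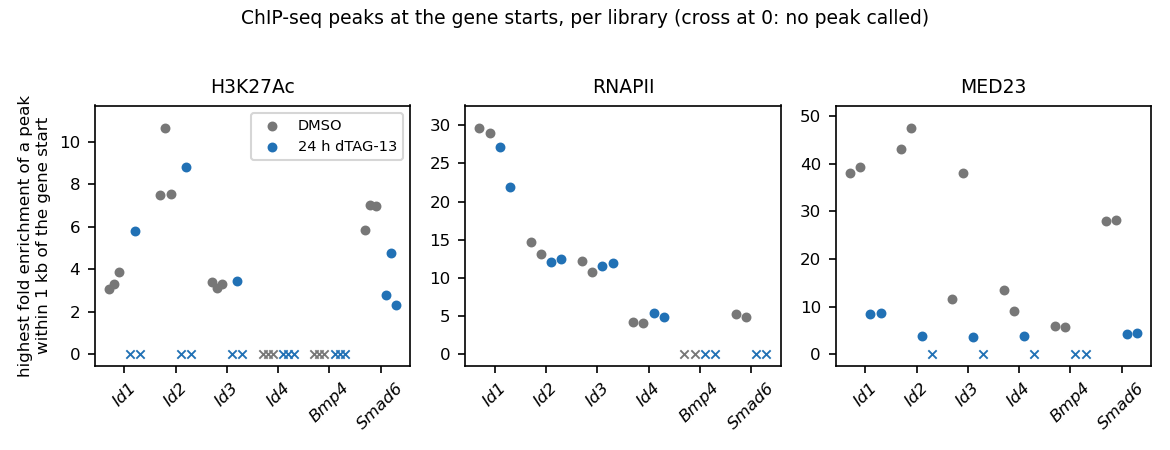
Highest MACS2 fold enrichment of a peak within 1 kb of the start of each gene (vertical axis, linear) for H3K27Ac, RNAPII and MED23, with 1 point per DMSO or 24 h dTAG-13 library and a cross at 0 for a library without a peak. MED23 at Id1 stands at 38.0 and 39.3 in DMSO and at 8.54 and 8.63 with dTAG-13, while RNAPII at Id1 goes from 29.6 and 29.0 to 27.1 and 21.9.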

How the data were processed

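RNA-seq, TT-SLAM-seq and ChIP–seq peak files of the groups named above were used; Hi-C, single-cell and other files were not used here. The TPM and coverage values were made by the authors with cutadapt (2.4), STAR (2.7.5a) and StringTie (2.0.6) on mm10, and coverage served here only for relative depth. The FPKM values of TT-SLAM-seq were made by the authors from reads with T-to-C conversions, counted by strand over whole gene bodies and with reads of several genes given to each. The fold enrichment of each peak was deposited by the authors from MACS2, run per library after alignment with BWA.

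Members and gene lists were chosen with earlier results of these data known. limma (3.58.1, R 4.3.3) was fitted to log2(value + 0.5) over all genes in each table, with empirical Bayes moderation, and p-values were adjusted by Benjamini-Hochberg over all genes tested. Time points were fitted together, as were the shERV groups, and the parental, NPC and TRIM28-FKBP DMSO libraries. The difference of the 24 h responses was an interaction term over the DMSO and 24 h dTAG-13 libraries of both experiments. ChIP–seq values were compared by two-sided exact permutation tests. The fits were checked on simulated data. The text names the 6 genes in every comparison, and of the lists (BMP and GDF ligands, receptors, SMADs and their ubiquitin ligases, modulators, BMP–SMAD targets, ID partners, and markers of ESCs, neural progenitors, feeder fibroblasts, endoderm, mesoderm and trophoblast) the up to 3 largest rises and falls past an adjusted p of 0.05 and 2-fold without overlap. The alternatives were other pseudocounts (0.1 and 1), no filter on low values, a mean of at least 5, centring on the median gene, a replicate block, only the groups compared, leaving out each library, and voom on recovered reads, the last added after seeing the data. The 3 genes most like each of the 6 over the time course were named by Pearson's r, and some of these are not reported here. Intervals cover 95%.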

Additional observations from a re-analysis of the deposited data

Results flagged for a closer look

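The response to 24 h of dTAG-13 was not the same in the shERV line as in the time course for 5 of the 6 genes, by the limma test of the difference itself. Of all 17653 genes tested, 26.2% were higher and 25.2% lower in that test, or 36.6% and 20.5% after centring, so such a difference is not particular to these genes. On the log2 scale, shERV line minus time course, the difference was 0.67 for Id1, 0.807 for Id2, 1.07 for Id3, −0.48 for Id4 and −1.148 for Smad6. In the time course all 3 libraries of Id1, Id2 and Id3 at 24 h lay below DMSO and those of Smad6 above it. In the shERV line Id1, Id2 and Smad6 libraries overlapped between dTAG-13 and DMSO. The Id3 libraries with dTAG-13 lay above DMSO there (117.4 to 126.5 against 103.4 to 115.7 TPM), without passing the test. How many of all genes had groups without overlap was not counted. The lines also differ in library chemistry and clone and, by the treatment notes but not the titles, in Dox. These cannot be told apart here.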

How the results depend on the processing

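Of 1041 differences of single genes under an alternative, 974 kept their direction and side of the threshold, 28 lost a call, 18 gained one and 21 changed sign. The number of the 6 genes past the test went from 1 to 0 at 6 h by TT-SLAM-seq with a mean of at least 5, with centring and with only the compared groups, and from 2 to 1 (mean of at least 5) or 4 (voom) at 24 h. By RNA-seq it went from 1 to 0 (no filter) or 2 (only the compared groups) at 2 h, from 0 to 1 at 6 h and from 6 to 3 at 96 h with centring, and from 2 to 1 (mean of at least 5) or 5 (centring) for dTAG-13 in the shERV line. Genes with a peak in every library went from 1 to 3 (5 kb) or 0 (top 10000 peaks) for H3K27Ac and from 2 to 4 or 1 for MED23. With a mean of at least 5, Smad6 by TT-SLAM-seq and Id4 in the shERV line were not tested, so those counts lost a gene and not a call. The cause of the other shifts was not tested.

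Leaving out 1 library gave counts of 0 to 1 (TT-SLAM-seq 6 h), 2 to 3 (24 h), 0 to 1 (RNA-seq 2 h and 6 h), 4 to 6 (96 h), 2 to 3 (dTAG-13, and Dox against dTAG-13, in the shERV line) and 4 to 5 (interaction). With it, TT-SLAM-seq differences ranged from −0.113 to 0.345 for Id2 at 2 h and from −0.16 to 0.118 (2 h) and −0.249 to 0.029 (6 h) for Id3. RNA-seq differences ranged from −0.086 to 0.001 for Smad6 at 2 h, and at 6 h from −0.213 to 0.02 for Id1, −0.222 to 0.021 for Id3 and −0.098 to 0.081 for Id4. In the shERV line they ranged from −0.042 to 0.027 for Id1 (dTAG-13), −0.031 to 0.05 for Id3 (with Dox, against DMSO) and −0.143 to 0.034 for Id2 (Dox against dTAG-13). Centring turned Id3 to 0.027 at 2 h of TT-SLAM-seq (0.113 by voom) and to −0.043 (dTAG-13) and −0.071 (with Dox) in the shERV line, Id1 to −0.003 at 96 h, Smad6 to −0.022 (with Dox) and Id2 to 0.04 (Dox against dTAG-13). None of these differences had passed the test apart from Id1 at 96 h.

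With the replicate number as a block, 5 of the 6 genes passed at 96 h in place of 6, and the counts of the other comparisons were as in the fits without the block (0, 1 and 2 by TT-SLAM-seq). Same-numbered libraries shared only a number, with correlations of deviations from −0.205 to 0.177. With a mean of at least 5, Id4 has no value in the time course, the shERV line or the interaction, and Smad6 none by TT-SLAM-seq or against parental mESCs and NPCs, since they lay under it. With only the compared groups, Smad6 at 2 h of TT-SLAM-seq was not tested. Depth limits Id4 and Bmp4 by TT-SLAM-seq, at 2 to 38 reads a library.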
